A study of Mus musculus with 82 samples.

Results

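The genes described here are 9 imprinted or imprint-associated mouse genes: the nested genes Zrsr1, Nnat, Mcts2 and Peg13, their host genes Commd1, Blcap, H13 and Trappc9, and Plagl1. They were taken by symbol from an annotation of GRCm38 with 49214 usable genes, and all 9 were found. Each nested gene lies wholly inside its host. The study profiled mouse embryonic stem cells of a hybrid 129-C57BL/6 background, grown in 2i medium with LIF, by ChIP-seq, RNA-seq and ATAC-seq. The values analysed are 2 peak lists. The HP1γ list holds 2047 peaks that lack the Adnp motif and is tied to 3 ChIP replicates in Cbx3 FlagAvi, Adnp KO cells and 3 in Cbx3 FlagAvi cells. The Adnp list holds 15026 peaks and is tied to 3 ChIP replicates in Adnp FlagAvi cells. All of these cells were otherwise untreated, and the tagged protein was captured on streptavidin beads. FlagAvi is an epitope tag that can be biotinylated. Replicates were pooled in both lists, so no peak has an error between replicates, and sequencing depth is unknown. The labels call the cells embryonic stem cells, which peak positions cannot check.

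Imprinted genes are expressed from the maternal or the paternal chromosome alone, a choice set by DNA methylation laid down in the germ line. Zrsr1 and Mcts2 arose as intronless copies of X-linked genes, Zrsr2 and Mcts1, that were inserted into introns of other genes. Zrsr1, Nnat, Mcts2, Peg13 and Plagl1 are transcribed from the paternal chromosome, and their promoters carry methylation on the maternal one. On the methylated copy of imprinted control regions the zinc finger protein ZFP57 binds the word TGCCGC and brings in KAP1 and enzymes that methylate H3K9, a mark bound by HP1 proteins. HP1γ is the HP1 protein encoded by Cbx3. Adnp, a zinc finger and homeodomain protein, joins HP1 and the remodeller Chd4 in the ChAHP complex, which the study's title describes as bringing HP1 to DNA by sequence and without that mark.

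The HP1γ list had a peak at the start of 3 of these loci and none at the other 2. The 4 transcription starts under a peak and, for contrast, the start of Mcts2 are shown by their promoter windows, which run from 250 bases before to 50 bases after the start. The sequences are those of RefSeq on GRCm38.p6, written 5′ to 3′ on the strand of the gene. Capitals mark the 2 words searched on both strands, TGCCGC (or its complement GCGGCA) and CGCCCNCT (or its complement AGNGGGCG), a CTCF-like word that was not taken from the authors' motif.
Zrsr1, chr11:22971755-22972054, plus strand: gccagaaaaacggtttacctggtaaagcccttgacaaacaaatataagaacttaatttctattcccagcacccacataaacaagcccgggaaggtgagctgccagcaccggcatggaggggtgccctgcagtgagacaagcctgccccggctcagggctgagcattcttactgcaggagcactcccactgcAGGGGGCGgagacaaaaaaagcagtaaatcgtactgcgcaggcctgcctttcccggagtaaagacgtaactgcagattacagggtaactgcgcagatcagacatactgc
Commd1, start nearer to Zrsr1, chr11:22972817-22973116, minus strand: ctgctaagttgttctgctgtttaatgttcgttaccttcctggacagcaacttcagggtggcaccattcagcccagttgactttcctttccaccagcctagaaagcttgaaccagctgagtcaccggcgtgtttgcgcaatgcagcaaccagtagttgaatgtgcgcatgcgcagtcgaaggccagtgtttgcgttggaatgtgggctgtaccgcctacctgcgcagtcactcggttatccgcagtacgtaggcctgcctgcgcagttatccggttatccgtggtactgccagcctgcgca
Nnat, chr2:157559828-157560127, plus strand: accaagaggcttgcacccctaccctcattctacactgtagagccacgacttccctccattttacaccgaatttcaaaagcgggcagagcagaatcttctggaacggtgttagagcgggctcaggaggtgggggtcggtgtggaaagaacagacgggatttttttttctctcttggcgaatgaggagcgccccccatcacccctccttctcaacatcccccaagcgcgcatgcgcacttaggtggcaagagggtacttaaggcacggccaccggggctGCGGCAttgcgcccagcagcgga
Plagl1, chr10:13090582-13090881, plus strand: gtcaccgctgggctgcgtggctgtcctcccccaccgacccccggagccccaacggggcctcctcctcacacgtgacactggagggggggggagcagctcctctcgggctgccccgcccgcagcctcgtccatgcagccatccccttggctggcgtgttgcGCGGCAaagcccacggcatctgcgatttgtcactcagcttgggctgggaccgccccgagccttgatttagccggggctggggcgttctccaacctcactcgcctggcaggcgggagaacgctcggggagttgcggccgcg
Mcts2, chr2:152686898-152687197, plus strand: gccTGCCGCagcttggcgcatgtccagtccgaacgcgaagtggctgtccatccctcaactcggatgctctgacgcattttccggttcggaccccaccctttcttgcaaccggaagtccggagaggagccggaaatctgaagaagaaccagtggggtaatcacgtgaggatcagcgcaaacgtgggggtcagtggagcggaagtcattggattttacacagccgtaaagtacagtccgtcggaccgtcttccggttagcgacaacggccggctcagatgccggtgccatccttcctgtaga

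HP1γ peaks lay inside 5 of the 9 genes: Zrsr1, Commd1, Nnat, Blcap and Plagl1. Over all 49214 genes the share with an HP1γ peak inside was 1.65%. Within 5 kb of an end, HP1γ peaks lay at 4 genes (Zrsr1, Nnat, Blcap and Plagl1), against 1.59% of all genes, and within 20 kb at 5, against 4.73%. The calls inside and within 5 kb rest on only 3 different peaks, because a nested gene and its host share the same ones. Within 20 kb there were 4 different peaks, and the added one, outside Nnat and Blcap, called no further gene. The genes were chosen by the listed peaks near them, so the counts describe the loci and were not tested. Among genes that also lie wholly inside another gene, of which there are 9905, 0.495% held an HP1γ peak. Adnp peaks lay within 5 kb of an end at 0 of the 9 genes, against 14.3% of all genes, and with 9 genes this count is near that share. With a window of 10 kb, 3 of the 9 genes had one. Adnp peaks lay up to 20 kb from an end at 6 of the 9, against 31.5% of all genes, and inside 2 of the 9, against 11.7%. All members but Peg13 are protein-coding, and of protein-coding genes the shares were 41.2% and 20.7%. The calls within 20 kb are not independent, because Zrsr1 and Commd1 share a peak, as do Mcts2 and H13.

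**Figure D1:**
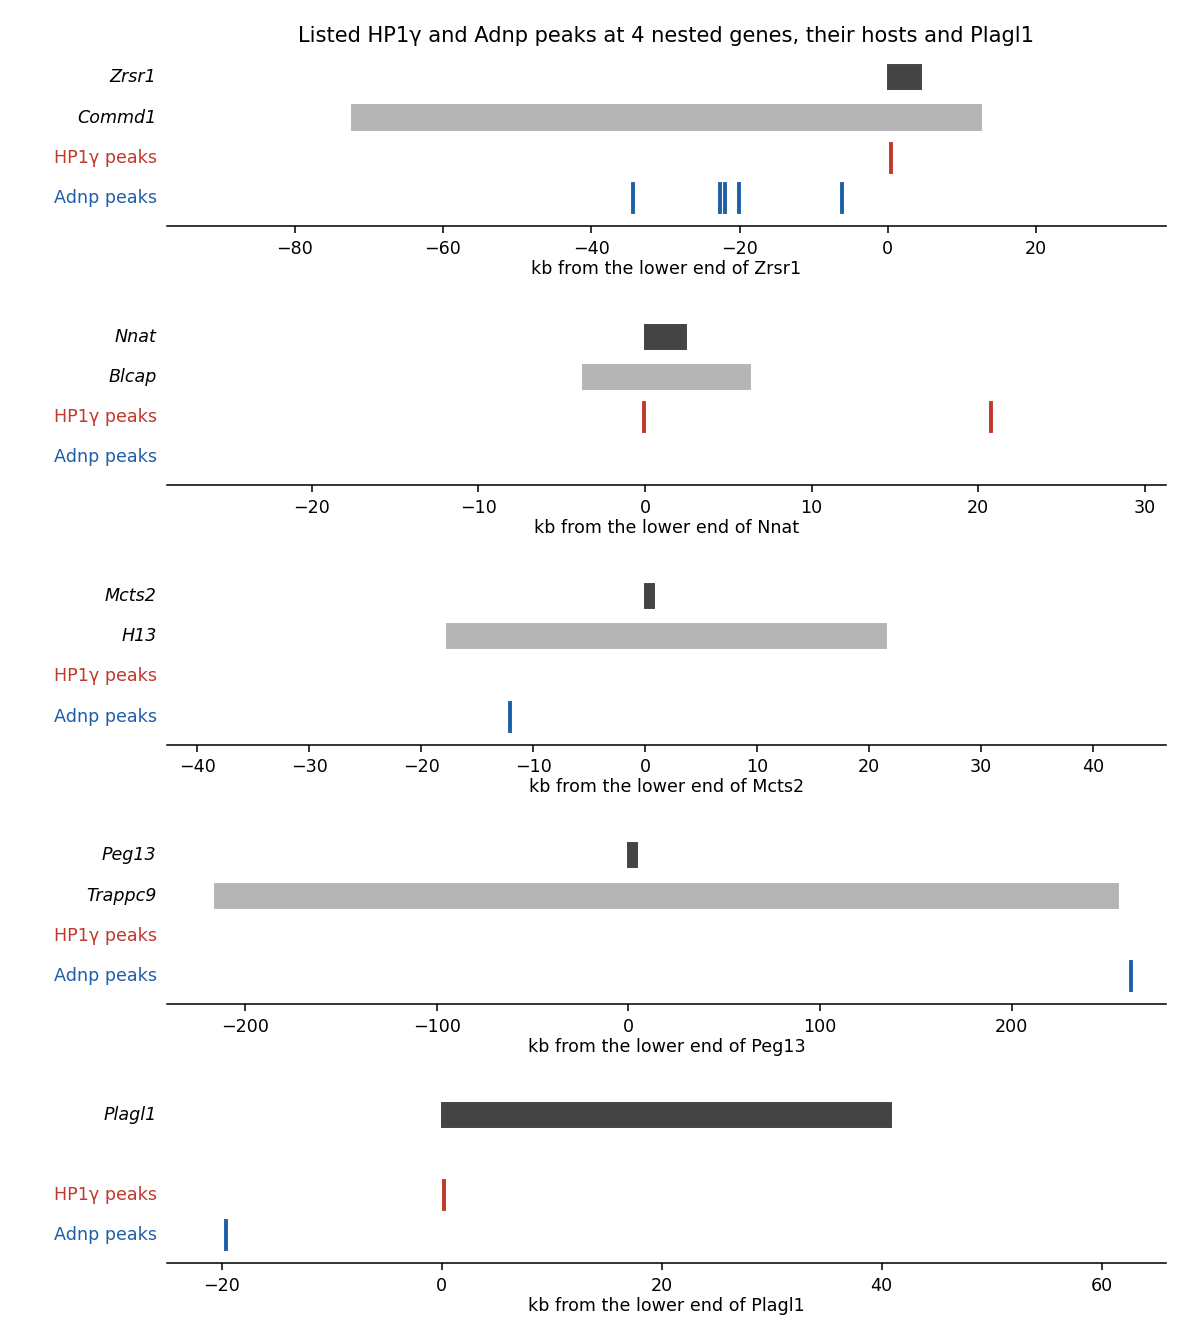
Position of listed HP1γ peaks (red) and Adnp peaks (blue) along each locus, in kb from the lower end of the nested gene (dark) or of Plagl1, with the host gene in grey; ticks mark peak centres and are not drawn to width, each panel has its own scale and shows 25 kb beyond the outer gene. HP1γ ticks stand at the start of Zrsr1, Nnat and Plagl1, while the panels of Mcts2 and Peg13 have none.

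Zrsr1 (NCBI Gene 22183, chromosome 11, 22972005 to 22976496) encodes a relative of the U2AF small subunit that takes part in recognising 3′ splice sites. Its HP1γ peak ran from 22971939 to 22972957 and was 1019 bp wide. It began 66 bases before the Zrsr1 start and ended 952 bases after it, so 953 of its bases lay inside the gene. Commd1 (NCBI Gene 17846, 22899728 to 22984539), the host, encodes a protein of copper balance and NF-κB control and is read from the opposite strand. The RefSeq table gives Commd1 2 starts that lie 9.42 kb apart. The second of them lies 861 bp from the Zrsr1 start, inside the same HP1γ peak. The other Commd1 start, at 22982284, was 9.33 kb from the peak. No HP1γ peak inside Commd1 lay more than 5 kb from Zrsr1.

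Nnat (NCBI Gene 18111, chromosome 2, 157560078 to 157562525) encodes neuronatin, a small membrane protein of the endoplasmic reticulum. A peak of 870 bp, from 157559598 to 157560467, began 480 bases before the Nnat start and ended 389 bases after it. All 300 bases of the Nnat promoter window lay under it. Blcap (NCBI Gene 53619, 157556362 to 157566361) encodes a small conserved protein named for its loss in bladder cancer and is read from the opposite strand. Its own start was 5.89 kb from that peak and 6283 bp from the Nnat start, with no HP1γ peak in between. A second, narrow HP1γ peak of 216 bp (157580726 to 157580941) lay outside both genes, 18.2 kb from Nnat and 14.4 kb from Blcap, on the side of the Blcap start. The lncRNA gene Platr27 was 14638 bp from this second peak.

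Plagl1 (NCBI Gene 22634, chromosome 10, 13090832 to 13131694) encodes a zinc finger transcription factor that restrains cell growth. Its HP1γ peak spanned 13090735 to 13091330 and was 596 bp wide. It began 97 bases before the start and ended 498 bases after it. The imprinted lncRNA gene Hymai starts 13 bp further on, inside the same peak. Zrsr1, Nnat and Plagl1 thus shared 1 arrangement, a peak that covered the transcription start itself.

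Of the 8 transcription starts listed for 7 of the genes, 4 lay under an HP1γ peak, where 0.236% of all 32619 starts did. These were the starts of Zrsr1, Nnat and Plagl1 and the Commd1 start next to Zrsr1. The remaining 4 starts were 5.89 kb (Blcap), 9.33 kb (Commd1), 102 kb (Mcts2) and 120 kb (H13) from an HP1γ peak. Peg13 and Trappc9 have no start in the RefSeq promoter table. No member start lay under an Adnp peak, where 0.527% of all starts did. Distances to Adnp peaks ran from 5.47 kb at the H13 start to 35.8 kb at the Nnat start.

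**Figure D2:**
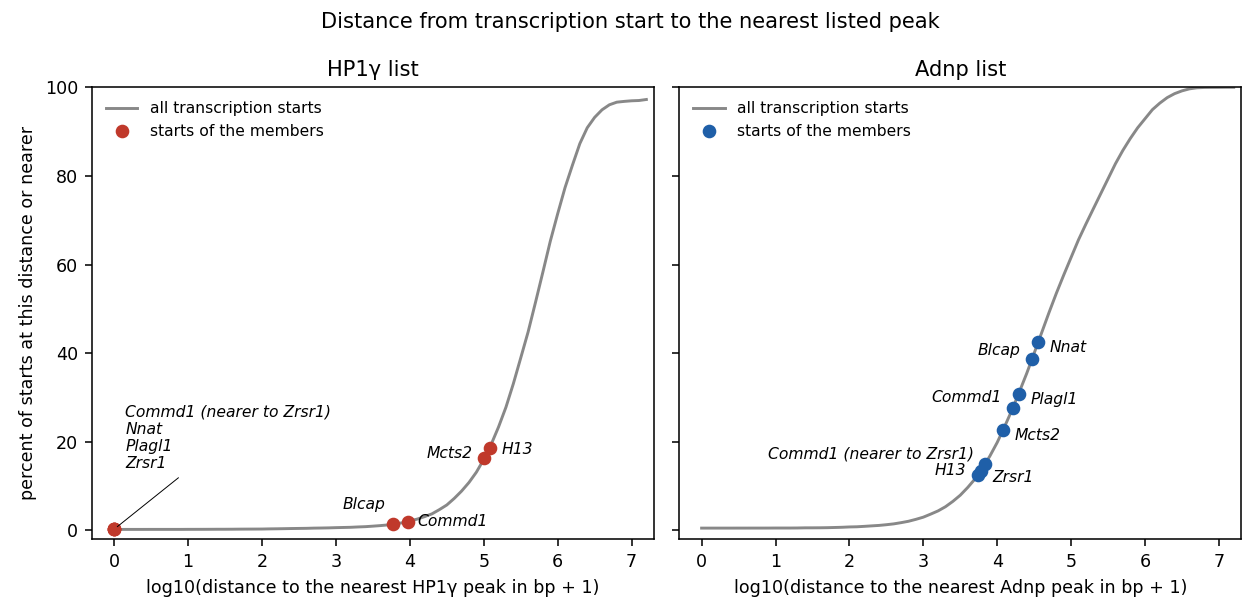
Share of all 32619 transcription starts (grey line, percent) with a listed HP1γ peak (left) or Adnp peak (right) at a given distance or nearer, on an axis of log10(distance in bp + 1), with the 8 member starts as points. At HP1γ, 4 starts sit at distance 0, where 0.236% of all starts lie, while the member starts at Adnp lie between 12.5% and 42.5% of the line.

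Mcts2 and Peg13 had no listed HP1γ peak nearby. Mcts2 (NCBI Gene 66405, chromosome 2, 152687148 to 152687946) is a copy of the gene of a translation re-initiation factor and, unlike Zrsr1 and Nnat, has its start on the same strand as its host. The nearest HP1γ peak was 101 kb from Mcts2 and 80.4 kb from its host H13 (NCBI Gene 14950, 152669422 to 152708668), which encodes signal peptide peptidase. Of all genes, 16.8% and 14% had an HP1γ peak as near or nearer than Mcts2 and H13. Peg13 (NCBI Gene 353342, chromosome 15, 72805602 to 72810324) is a noncoding RNA gene, and its nearest HP1γ peak was 602 kb away. For its host Trappc9 (NCBI Gene 76510, 72589620 to 73061238), a subunit gene of a vesicle tethering complex, it was 352 kb. Of all genes, 55.7% and 40.6% had an HP1γ peak as near or nearer than Peg13 and Trappc9. Trappc9 is 472 kb long and held no peak of either list. Among the 371 genes of 400 kb or more, 14.3% held an HP1γ peak and 39.6% an Adnp peak. The HP1γ list leaves out peaks with the Adnp motif, so a gene without a peak in it may still have had HP1γ at such a site.

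The HP1γ peaks over starts were wide for this list, whose median width was 306 bp (quartiles 233 and 452 bp). The Zrsr1 peak was as wide as or wider than 97.6% of the list, the Nnat peak 95.9% and the Plagl1 peak 88%. The narrow peak outside Nnat reached 16.3%. A wider peak covers a given base more readily, and the peaks over starts were not ranked against other listed peaks over starts. The authors' score is 0 for every HP1γ peak, so width is the one measure of these peaks in the file, and it is not a measure of occupancy.

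**Figure D3:**
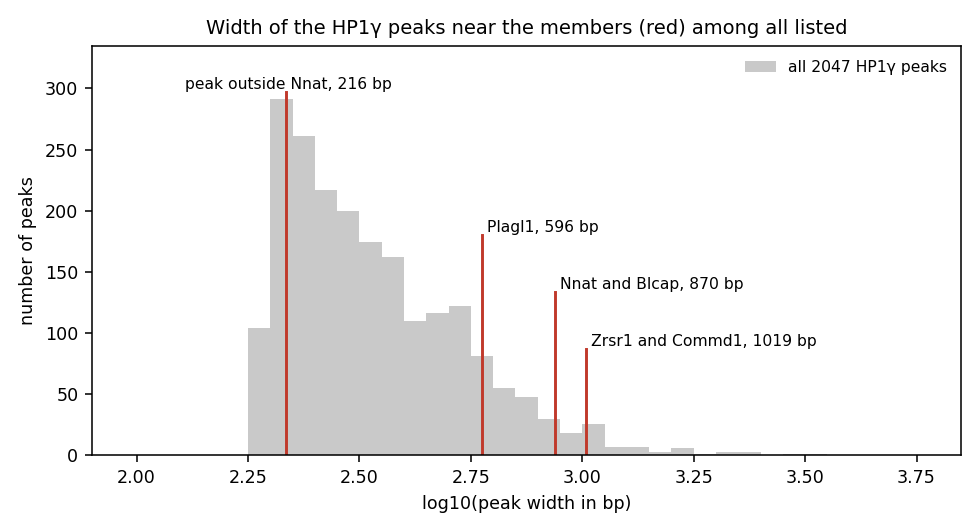
Histogram of the widths of all 2047 HP1γ peaks, as log10 of bp, with the 4 peaks inside or within 20 kb of a member as red lines labelled by gene. The 3 peaks over transcription starts, at 596, 870 and 1019 bp, stand in the upper tail, and the peak outside Nnat, at 216 bp, stands at the narrow end.

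Adnp peaks lay inside 0 of the 4 nested genes, where 3.1% of genes wholly inside another gene held one, and inside 2 of the 4 hosts, Commd1 and H13, where 20.7% of protein-coding genes did. With 4 genes each, these counts are too small to be set apart from those shares, which were not matched for gene length. They show nothing particular to nested genes or hosts. Commd1 held 5 Adnp peaks over 84.8 kb, and Zrsr1, within it, held none. Of all genes 0.374% held 5 or more Adnp peaks, and of the 462 genes of 80 to 90 kb 1.95% did. The Commd1 peaks spanned 22937439 to 22937724, 22949199 to 22949468, 22949531 to 22950420, 22951678 to 22952086 and 22965715 to 22965979. Their authors' scores were 19.9, 7.36, 13.7, 25.8 and 8.34, against a median of 21.2 over the list. The score has no stated kind and serves here only to rank peaks within the list. The highest of the 5 stood at or above 61.5% of the list and the lowest at or above 2.55%, and 4 of the 5 lay below the median. The middle 3 lay close together, and the last was the nearest to Zrsr1, at 6.03 kb.

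The other loci had fewer Adnp peaks. H13 held 1 peak, at 152674932 to 152675222 with a score of 18.3, which was 5.47 kb past the H13 start and 11.9 kb from Mcts2. Trappc9 had 1 peak 6.57 kb beyond its upper end, at 73067804 to 73068276. Its score of 59.6 stood at or above 91.6% of the Adnp list, and it was 257 kb from Peg13. Plagl1 had 1 peak at 13071006 to 13071409, 19.4 kb before the gene and inside the lncRNA gene Gm40602, with a score of 30.9. Nnat and Blcap had none within 20 kb. The nearest was 33.3 kb from Nnat and 29.5 kb from Blcap, and a second lay 34.7 kb from Nnat.

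The 20 kb limit mattered most for the Adnp call of Plagl1, whose nearest Adnp peak lay 19423 bp away. The Adnp peaks nearest to the limit were at 19919 bp (counted) and 21585 bp (not counted), both at Zrsr1. They did not decide its call, because Zrsr1 also had an Adnp peak at 6026 bp. For the 5 kb limit the nearest peaks were the HP1γ peak 3236 bp inside an end of Blcap (counted) and the Adnp peak 5510 bp inside an end of H13 (not counted).

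The HP1γ list leaves out peaks with the Adnp motif, and the share of it that overlaps Adnp peaks was not counted. None of the 4 HP1γ peaks overlapped an Adnp peak, which is therefore not read as a trait of these loci. The nearest Adnp peak was 5.96 kb from the Zrsr1 peak, 19.3 kb from the Plagl1 peak, 14.9 kb from the peak outside Nnat and 35.4 kb from the Nnat peak. Of all HP1γ peaks 31.4%, 45%, 41.6% and 53.4%, in the same order, had an Adnp peak as near or nearer. Over the HP1γ list the median distance was 26.9 kb, and 45.6% of HP1γ peaks had an Adnp peak no more than 20 kb away. Their names in the file refer to Adnp knockout cells, but the list belongs to samples of knockout and wild-type cells alike, so the genotype in which each peak was seen is not known here.

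Inside the 4 nested genes there were 2 HP1γ peaks and no Adnp peak. Inside the 4 hosts there were the same 2 HP1γ peaks and 6 Adnp peaks. None of the host HP1γ peaks, but all 6 of the host Adnp peaks, lay over 5 kb from the nested gene. The nested genes make up 5.3% (Zrsr1), 24.5% (Nnat), 2.04% (Mcts2) and 1% (Peg13) of their host's length, so hosts offer more room for a peak. Per 100 kb searched, 20 kb on either side included, Zrsr1 had 2.25 HP1γ peaks and Commd1 0.801, while Nnat had 4.71 and Blcap 4. Both genes of each of these pairs have the same HP1γ peaks in that span, so only its length sets the densities apart. For Adnp the same densities were 4.5 at Zrsr1 and 4.01 at Commd1, 2.45 at Mcts2 and 1.26 at H13, and 0 at Peg13 and 0.195 at Trappc9. Nnat and Blcap had no Adnp peak in this span. By number of Adnp peaks in the same span, Zrsr1 had 2 and Commd1 5, so the order of Zrsr1 and Commd1 turned with the measure. Mcts2 and H13 had 1 each, the same peak, so only the length searched sets their densities apart.

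The X-linked parent genes had no listed peak near them. Zrsr2 and Mcts1 were 6020305 bp and 111753268 bp from an HP1γ peak. The X chromosome held 6 HP1γ peaks, and 0.16% of its 2500 genes had one within 20 kb of an end, so a gene without one is the rule there. The nearest Adnp peak was 106 kb from Zrsr2 and 32.1 kb from Mcts1. Of the genes on the X chromosome 5.28% had one up to 20 kb from an end.

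The promoter windows under HP1γ peaks did not stand out from the other member windows in CpG content. Plagl1 had 26 CpG dinucleotides, Nnat 17, the Commd1 start next to Zrsr1 17 and Zrsr1 10. Without a peak, Mcts2 had 25, H13 21, the other Commd1 start 18 and Blcap 17. The median over all 32619 windows was 7, and over the 124 windows overlapped by an HP1γ peak it was 23.

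**Figure D4:**
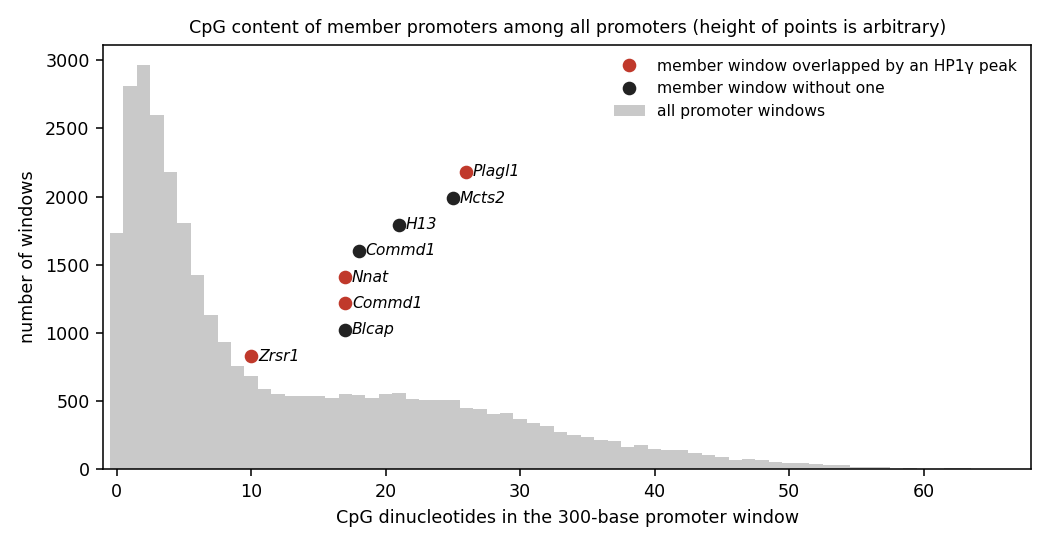
Number of CpG dinucleotides in the 300-base promoter window for all 32619 windows (grey bars, number of windows) and for the 8 member windows (points; their height only separates the labels), red where an HP1γ peak overlaps the window. Red and black points both lie between 17 and 26, apart from Zrsr1 at 10.

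The ZFP57 word TGCCGC occurred once in the windows of Nnat, Plagl1 and Mcts2 and of the Commd1 start without a peak, and not in those of Zrsr1, H13, Blcap and the Commd1 start under the peak. It lay under the HP1γ peak in Nnat and in Plagl1. Of all windows 11.7% held it, of the 124 windows overlapped by an HP1γ peak 22.6% did, and of the 320 overlapped by an Adnp peak 17.5% did. The word CGCCCNCT occurred once in the windows of Zrsr1, H13 and Blcap, and in 12.3% of all windows. It was in 17.7% of the 124 windows overlapped by an HP1γ peak and in 28.8% of the 320 overlapped by an Adnp peak. At Zrsr1 it lay under the HP1γ peak. The capitals in the sequence above mark the word and not the extent of the peak. No occurrence of one word overlapped one of the other in these windows. Both words contain a CpG, and these shares were not matched for CpG content. The median number of CpG was 7 over all windows, 23 over those overlapped by an HP1γ peak and 20 over those overlapped by an Adnp peak. A match describes the letters and is not evidence of binding, and the rest of each peak could not be searched.

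Other imprinted genes give the wider setting. Of 50 further imprinted or neighbouring genes listed, 49 were found. An HP1γ peak lay inside 15 of these (30.6%), within 5 kb of an end at 10 (20.4%) and within 20 kb at 20 (40.8%). Over all genes these shares were 1.65%, 1.59% and 4.73%. For Adnp the counts were 10 (20.4%), 4 (8.16%) and 11 (22.4%), against 11.7%, 14.3% and 31.5% of all genes. Of the 60 transcription starts listed for the 49 genes, 6 (10%) lay under an HP1γ peak and 1 (1.67%) under an Adnp peak. Of all starts, 0.236% and 0.527% did. The counts are of genes and starts, not of different peaks. They include Hymai, whose start lies under the Plagl1 peak, and Nap1l5 and Herc3, which share 1 HP1γ peak. No test was made between these genes and the 9 described here.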

How the data were processed

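The authors deposited 2 peak lists without header lines, pooled over replicates; no source used here gives depth or caller settings. Per the submitters' processing notes, the tools were MACS2, edgeR, STAR 2.5.0a, Bowtie 1.0.0 and bcl2fastq 1.17, with no roles given, and the build was mm10 (GRCm38). The score of each Adnp peak is the authors' own and of no stated kind; the deposited HP1γ score is 0 throughout.

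Genes on chromosomes 1 to 19 and X that start at 3 Mb or later came from a table of GRCm38.p6. A peak was inside a gene if any base overlapped it, and near an end if any base lay within 5 or 20 kb of either end, inside or outside. Nested meant wholly inside another gene. Interval functions were tested on simulated data. The members and lists were chosen with earlier results of these data known, so no test was run and no p-value is given. Named genes were the 9 members, genes within 20 kb of their peaks (of these Cct4, 17636 bp from the Zrsr1 peak, is given here only), the X-linked parents and 3 genes of further imprinted retrogene loci. Alternatives were other windows, peak centres, joined peaks, the higher-scoring Adnp peaks, other gene backgrounds, and densities. Python 3.11.15, NumPy 2.4.6, pandas 2.3.3 and matplotlib 3.10.9 were used.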

Additional observations from a re-analysis of the deposited data

How the results depend on the processing

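Counts of members with an HP1γ peak stayed within 1.5 times of the reported ones under windows of 1, 10 and 50 kb, peak centres and joined peaks. By peak centres 4 genes rather than 5 held one. Members with an Adnp peak near an end numbered 3 with a window of 10 kb in place of 5 kb, where none had one. With only the Adnp peaks at or above the median score, 3 members had a peak within 20 kb, 1 had a peak inside, and the peaks summed over members fell to 4, against 11 with the whole list. Background shares moved with the genes used. For HP1γ inside, within 5 kb and within 20 kb they were 2.86%, 2.04% and 5.88% of protein-coding genes, and 0.495%, 1.14% and 3.42% of genes wholly inside another gene. For Adnp they were 20.7%, 19.3% and 41.2%, and 3.1%, 9.92% and 26.1%. Summed over pairs, nested genes and hosts held the same number of HP1γ peaks. Leaving out host peaks within 5 kb of the nested gene gave nested genes 2 more. That difference follows from the rule, because the 2 peaks left out are the same 2 that lie inside the nested genes. By count no pair had more peaks at the nested gene. Per length searched, 2 pairs had a higher density there for HP1γ and 2 for Adnp. Except for Adnp at Zrsr1 and Commd1, both genes of these pairs shared the same peaks, so the shorter span fixed the order. No paired analysis was possible because both lists pool their replicates, and for the same reason no replicate was left out.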

Other observations

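Further imprinted retrogene loci, whose genes are also in the counts of other imprinted genes above, had HP1γ peaks too. Nap1l5, an intronless gene inside Herc3 on chromosome 6 (58905233 to 58907126), had a peak of 1076 bp from 58906361 to 58907436. It began 310 bases before the Nap1l5 start and ended 765 bases after it, and it was as wide as or wider than 98.2% of the HP1γ list. Herc3 held no other HP1γ peak, and its listed start was 72.7 kb away. The nearest Adnp peak was 1741175 bp from Nap1l5. The Nap1l5 promoter window held TGCCGC at 2 places, both under the peak, where 1.54% of all windows and 4.03% of those overlapped by an HP1γ peak held it more than once. These shares, too, were not matched for CpG content. Inpp5f on chromosome 7 (128611181 to 128696436), which contains an imprinted transcript with its own start, held 1 HP1γ peak of 555 bp, from 128687918 to 128688472. That peak lay 76.6 kb past the listed Inpp5f start and 7964 bp from the other end of the gene. Its nearest Adnp peak was 693 kb from the gene.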
